A study of Mus musculus with 31 samples.

Results

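The 40 genes described here act in the folding of proteins in the endoplasmic reticulum (ER) and in the unfolded protein response. They are defined by a list of symbols and not by a cut on measured values. The list was chosen with earlier results of these data known. All 40 were found among the 55379 genes counted in each mammary gland, and all 40 were among the 14362 genes with enough counts to be tested. They fall into 6 genes for entry into the ER, 11 chaperones and co-chaperones, 6 genes of disulfide formation, 7 of ER-associated degradation, 6 stress sensors and transcription factors, and 4 targets of ATF4 and CHOP. Glands came from 31 C57BL/6J dams on lactation day 10, whose diet held 4 mg/kg folic acid (breeder diet) or 24 mg/kg (FA diet). Dams were injected intraperitoneally each day with saline or with 20 mg/kg fluoxetine, a selective serotonin reuptake inhibitor, from embryonic day 13 of pregnancy to the day the gland was taken. By the labels, the groups held 8 dams (breeder diet + saline), 7 (breeder diet + fluoxetine), 8 (FA diet + saline) and 8 (FA diet + fluoxetine). RNA was taken from the whole gland, so fewer cells of a type and less RNA per cell cannot be told apart.

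The lactating alveolar cell secretes caseins and whey proteins, which enter the ER through the Sec61 channel and fold there with the help of chaperones and disulfide isomerases. When unfolded proteins build up, the sensors IRE1 (*Ern1*), PERK (*Eif2ak3*) and ATF6 act through the transcription factors XBP1, ATF4 and cleaved ATF6. XBP1 and ATF6 are known for raising chaperone and degradation genes, and ATF4 with CHOP (*Ddit3*) for amino acid synthesis and stress genes. XBP1 is made by splicing of its mRNA, ATF4 by translation and ATF6 by cleavage, so counts per gene do not show whether these factors were active.

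The comparisons ask whether fluoxetine, the FA diet or their combination moved these genes. No member differed at a false discovery rate (FDR) of 10% in any of the 3 contrasts. The difference that the data do show lies between dams of the same group. Levels of most members moved together with *Hspa5*, the main ER chaperone, from dam to dam, while *Xbp1* did not do so detectably and *Ddit3* moved the opposite way.

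Since members moved together, the promoters were read for the elements that ATF6, XBP1 and ATF4 are known to bind. The window was the 250 bases before the start of the canonical transcript of each gene on GRCm39, for 12628 tested protein-coding genes. Exons of other transcripts or of other genes can lie in it, so a site need not lie outside the annotated gene. Of the members printed below, annotated exons covered all 250 bases for *Syvn1*, *Manf*, *Ddit3* and *Chac1*, and none for *Pdia6*. The ER stress response element (ERSE) was searched on both strands as CCAAT and CCACG with 9 free bases between them. It stood in 9 of 40 members and in 16 of the 12628 promoters, or 0.127%. The shorter ERSE-II, ATTGG and CCACG with 1 free base between them, stood in 3 members and in 8 promoters, or 0.0634%. The composite site of C/EBP and ATF factors, TGATG and AA with 1 free base between them, stood in 3 members and in 266 promoters, or 2.11%. The 12628 promoters include those of the members. Members were listed for their known part in this response, so these shares are a description and not a test. ERSE and ERSE-II share the letters CCACG, and no member held both. The sites printed here are those of *Hspa5*, of the members most like it from dam to dam, of 1 member each from disulfide formation and degradation, and of the members that did not follow it. Each is printed 5′ to 3′ in the direction of the motif, with the match in capitals and 5 bases on either side, beside its position on GRCm39 and the strand it was read from.

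*Hspa5*, ERSE, chr2:34662032-34662060, plus strand: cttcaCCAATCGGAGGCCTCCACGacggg
*Calr*, ERSE, chr8:85573699-85573727, plus strand: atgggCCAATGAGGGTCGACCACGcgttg
*Hsp90b1*, ERSE, chr10:86541392-86541420, plus strand: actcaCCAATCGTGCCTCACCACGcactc
*Hsp90b1*, ERSE, chr10:86541497-86541525, minus strand: caagcCCAATCGCAAGGAGCCACGcttcg
*Pdia6*, ERSE, chr12:17316487-17316515, plus strand: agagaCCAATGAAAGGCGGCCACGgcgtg
*Syvn1*, ERSE, chr19:6096557-6096585, plus strand: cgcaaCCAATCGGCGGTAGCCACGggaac
*Manf*, ERSE-II, chr9:106769233-106769253, plus strand: tcctcATTGGTCCACGtgccc
*Herpud1*, ERSE-II, chr8:95113000-95113020, plus strand: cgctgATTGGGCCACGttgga
*Ddit3*, composite site, chr10:127126356-127126373, minus strand: ggggaTGATGCAAtgttt
*Chac1*, composite site, chr2:119181525-119181542, minus strand: aggagTGATGCAAcggca

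The other members with an ERSE were *Canx*, *Dnajc3*, *Creld2* and *Ero1b*, *Hyou1* had ERSE-II at 2 places, and *Herpud1* also held the composite site. The ERSE of *Hspa5* lay 67 to 49 bases before the canonical start, that of *Calr* 55 to 37 and that of *Pdia6* 41 to 23. *Hsp90b1* held 2 on opposite strands. *Xbp1*, *Atf4*, *Asns* and *Trib3* held none of the 3 motifs in this window, which says only that these letters are not there. A match is a run of letters and not evidence of binding.

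Total counts per dam lay between 15412542 and 36000439. The 8 milk protein genes were detected in every dam, as the labelled tissue requires, and took 57.2 to 73.3% of the counts in 29 of 31 dams. Milk proteins were at 17.7% in FA diet + fluoxetine dam 3, which stood apart, and breeder diet + fluoxetine dam 13 had 49.8%. The summed level of 8 leukocyte markers was 139 CPM in the former, against 22.2 to 49.9 CPM in all other dams. CPM are counts scaled to the library total, here after normalization by the trimmed mean of M values (TMM). Skeletal muscle markers ranged from 0.664 to 6720 CPM between dams. For members described with their levels in every group, the text gives the difference without a single dam where that dam moved it by more than 1.5 times. Those of *Sec61b* and *Xbp1* for fluoxetine lay near 0 and took either sign as single dams were left out.

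Together the members took 0.147 to 0.433% of all counts. Levels between genes are compared per kb of summed exon length. This length joins the exons of all annotated transcripts of a gene, so the order depends on the annotation. *P4hb*, which encodes protein disulfide isomerase, was the most abundant member, with a median of 111 CPM per kb over the 31 dams. *Atf4* followed at 57.8 CPM per kb and *Xbp1* at 55.9, so both transcription factors stood above every chaperone per kb. Before division by length, the median was 147 CPM for *Hspa5* and 137 for *Atf4*. *Calr*, a chaperone that binds glycans and calcium, had a median of 34.3 CPM per kb, *Sec61b*, a subunit of the channel, 33.8, and *Hspa5*, the gene of BiP, 26.5. The sensors were at the lower end. *Atf6* had 1.20 CPM per kb, *Eif2ak3* 1.14 and *Ern1* 0.353, the lowest of the 40 per kb. *Ddit3* stood next to last at 0.566 CPM per kb. Before division by length, medians were 3.57 CPM for *Ern1*, 3.16 for *Ddit3* and 2.83 for *Chac1*.

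**Figure D1:**
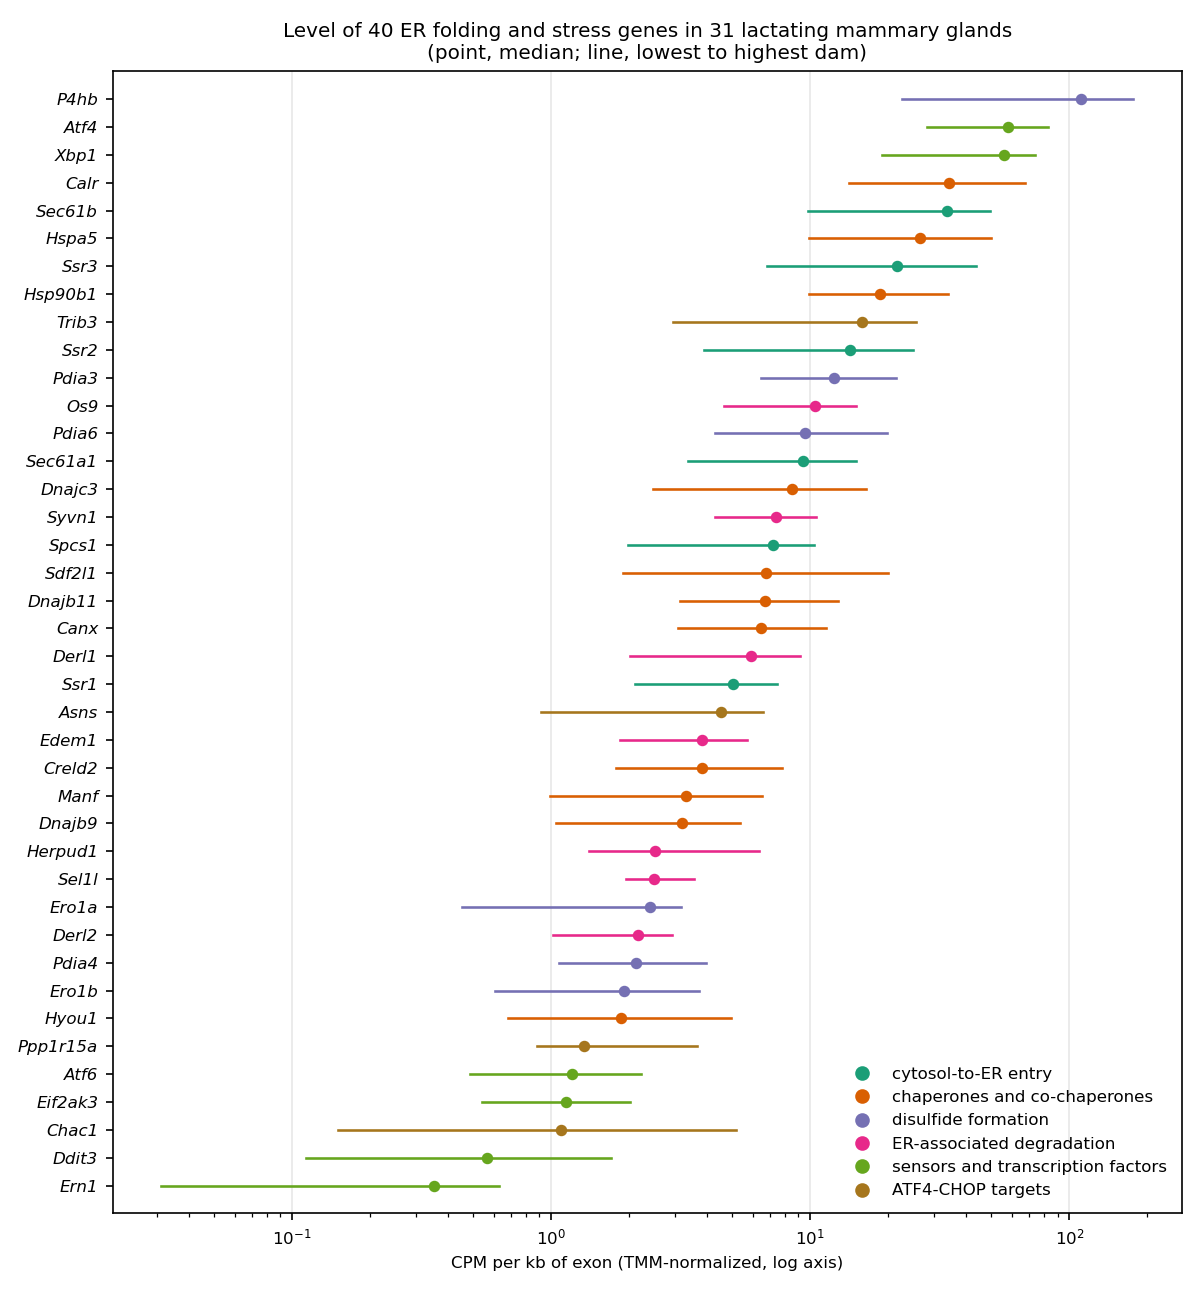
Level of the 40 members in CPM per kb of exon on a log axis. Points are medians of 31 dams, lines run from the lowest to the highest dam, and colours mark the role. *P4hb*, *Atf4* and *Xbp1* lead, and *Ddit3* and *Ern1* are lowest.

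The fold between the highest and the lowest dam ranged from 1.83 for *Sel1l*, the partner of the ubiquitin ligase of the ER membrane, to 34.3 for *Chac1*, a glutathione-degrading enzyme induced by ATF4. Its median over the members was 4.58. The median SD of log2 CPM within groups was 0.48 for the members and 0.48 for all genes tested, so the members varied about as much as other genes. *Hspa5* had an SD of 0.69 and *Hyou1*, another chaperone of the same ATPase family, 0.69, while *Atf4* had 0.32 and *Os9*, a lectin of ER-associated degradation, 0.32.

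Single dams carried much of this range. FA diet + fluoxetine dam 3, the gland with little milk protein mRNA, was the lowest of all dams for 22 of 40 members, and 20.6% of all genes tested were lowest there. It was the highest for *Ddit3*, *Ern1* and *Ppp1r15a*, the phosphatase subunit that ends the block of translation by PERK. These were 3 of 40 members, while 21.9% of all genes tested were highest in that dam. The highest of all dams for most members was FA diet + fluoxetine dam 2, with 21 of 40 members, or 52.5%, against 4.66% of all genes tested. Its milk proteins, at 69.4% of counts, lay within the range of most dams. Breeder diet + saline dam 10 was lowest of all for 4 members, against 2.32% of all genes.

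**Figure D2:**
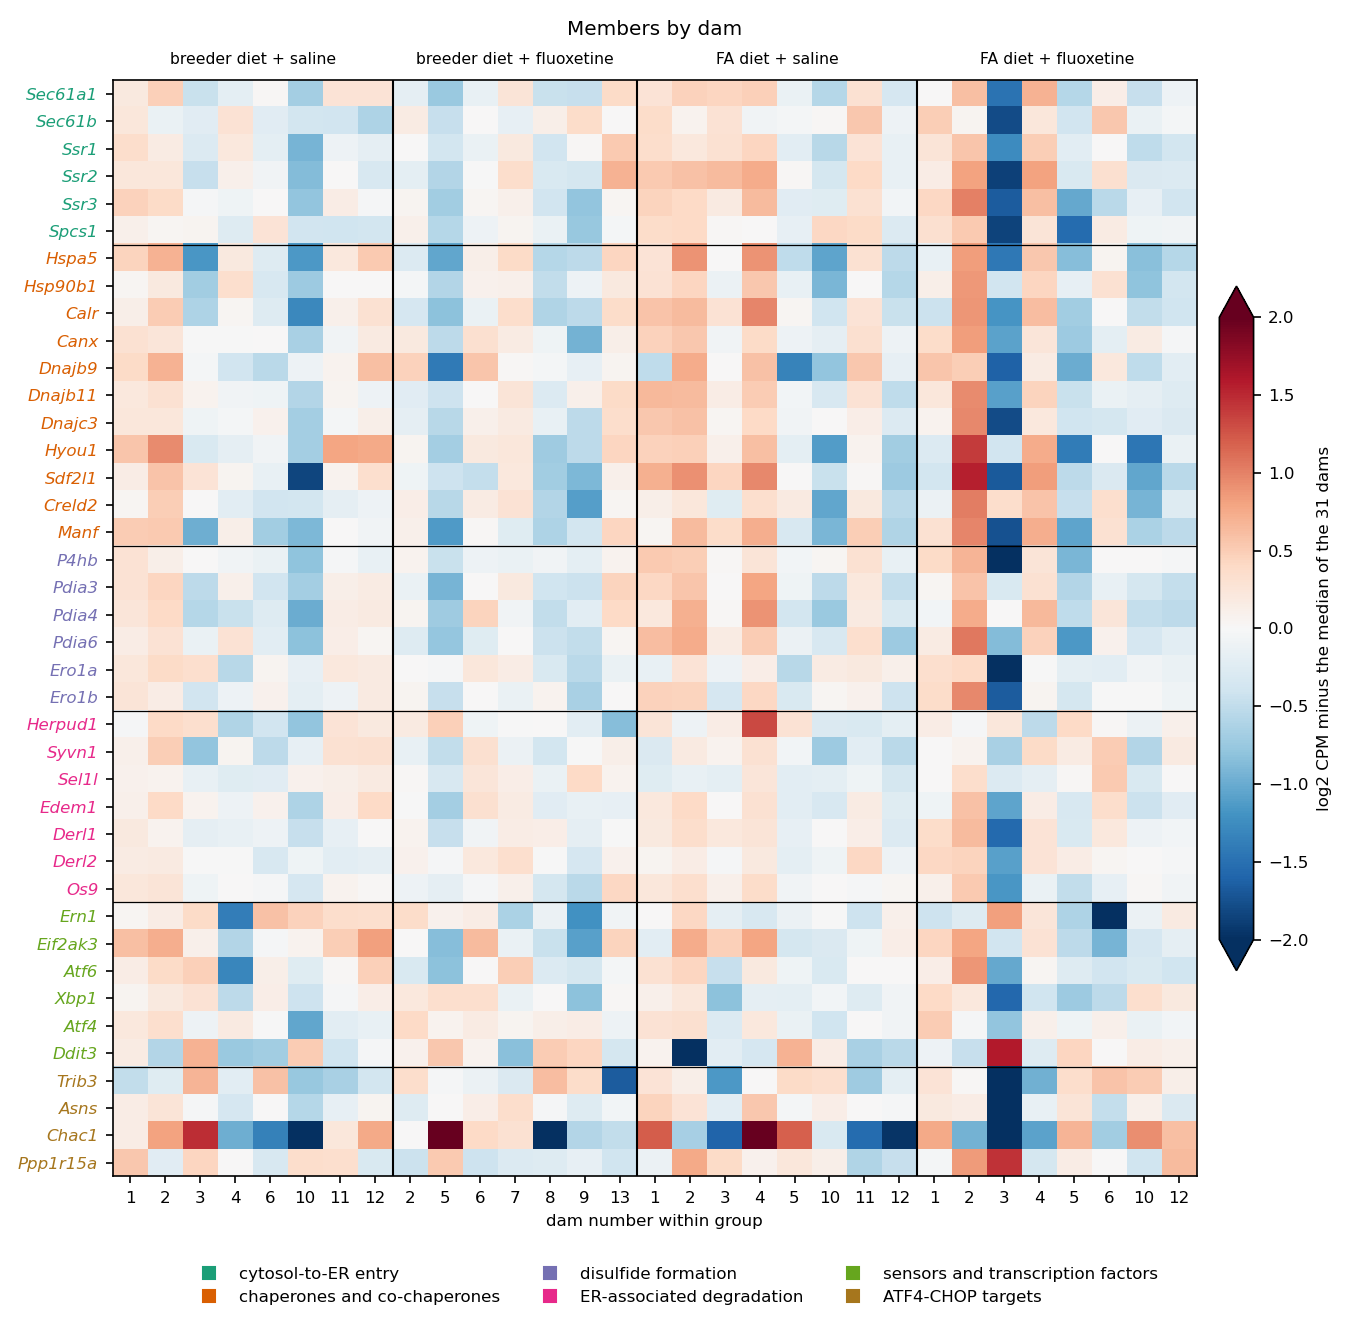
Log2 CPM of each member in each dam, minus the median of the 31 dams for that gene. Columns are dams by group, rows are members by role, red is higher and blue lower. FA diet + fluoxetine dam 3 is blue for most members and red for *Ddit3*, *Ern1* and *Ppp1r15a*, and FA diet + fluoxetine dam 2 is red for most chaperones.

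Fluoxetine was first compared with saline over both diets, 15 against 16 dams. In edgeR's quasi-likelihood fit, with p adjusted by Benjamini-Hochberg over 14362 genes, 0 of 40 members passed an FDR of 10%, where 0.0209% of all genes did. A raw (unadjusted) p of at most 0.05 was reached by 0 members, against 9.92% of all genes. The likelihood ratio test and DESeq2 also gave 0 members by either threshold. Of all 14362 genes, 45 and 70 passed the FDR in these fits, and 1423 and 1559 had a raw p of at most 0.05. Log2 fold changes were above 0 for 11 members and below for 29, with a median of -0.11, while 53.5% of all genes were above 0, with a median of 0.02. Without FA diet + fluoxetine dam 2, 5 members had a raw p of at most 0.05, beside 1939 of 14334 genes in that fit, and 7 members were above 0, beside 53.2% of genes. The milk proteins, made by the same alveolar cells, were below 0 for 8 of 8 genes with a median of -0.20, and whether their level has a part in that of the members was not tested.

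By role, fold changes under fluoxetine were above 0 for 1 of 6 genes of ER entry, 2 of 11 chaperones, 0 of 6 genes of disulfide formation, 3 of 7 of degradation, 3 of 6 sensors and factors, and 2 of 4 ATF4 and CHOP targets. Since many of these genes move together between dams, their directions are not independent. The 95% interval of a member had a median half-width of 0.32 on the log2 scale, which is the precision that this spread between dams allowed.

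**Figure D3:**
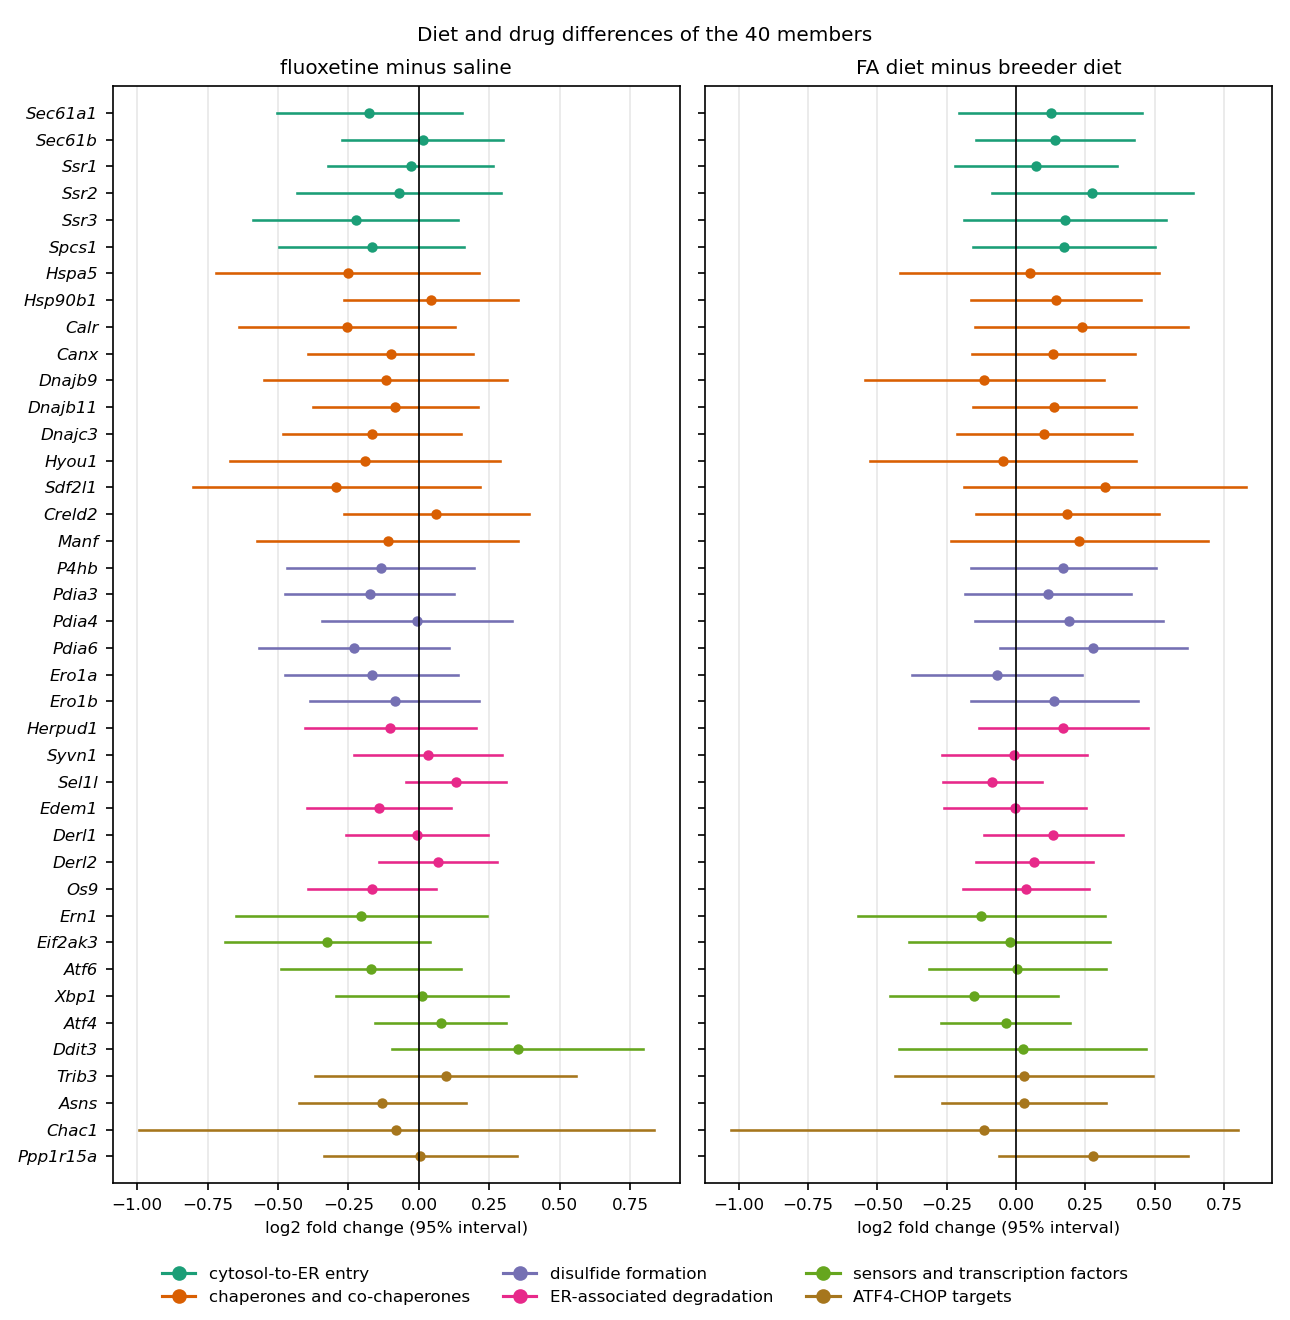
Log2 fold change of each member for fluoxetine minus saline (left) and FA diet minus breeder diet (right), each averaged over the other factor, with 95% intervals from edgeR's quasi-likelihood fit over 31 dams. All intervals cover 0.

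Of the genes of ER entry, *Sec61b* (ENSMUSG00000053317, chr4:47474614-47483864) had between 42.8 and 80.5 CPM in breeder diet + saline (median 56.1) and between 47.9 and 84.5 in breeder diet + fluoxetine (median 66.1). On the FA diet it had between 61.2 and 95.5 CPM with saline (median 67.9) and between 19.1 and 95.9 with fluoxetine (median 66.3). All 4 groups overlapped. Fluoxetine minus saline was 0.01 on the log2 scale, as for all such values here (SE 0.141, adjusted p = 0.985). The other 5 genes, *Sec61a1*, *Spcs1* of signal peptidase and *Ssr1*, *Ssr2* and *Ssr3* of the translocon-associated complex, lay between -0.22 and -0.03.

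Of the chaperones, *Hspa5* (ENSMUSG00000026864, chr2:34661982-34668880) ranged from 66.1 to 239 CPM in breeder diet + saline, with a median of 169. In breeder diet + fluoxetine it ranged from 71.5 to 198 CPM (median 122). On the FA diet it ranged from 70.7 to 276 CPM with saline (median 163) and from 54.8 to 262 with fluoxetine (median 116). Low and high dams occurred in every group. The fluoxetine difference was -0.25 (log2), with a 95% interval from -0.72 to 0.21 (SE 0.229, adjusted p = 0.746). *Calr* (ENSMUSG00000003814, chr8:85567946-85573667) had medians of 137 CPM (range 53.8 to 187), 103 (74.3 to 168), 158 (95.9 to 258) and 97.9 (57.8 to 240) in the same order of groups, with overlapping ranges, and a difference of -0.26 (log2, SE 0.189, adjusted p = 0.671). *Hsp90b1*, the ER form of HSP90, and *Creld2* were the chaperones above 0, at 0.04 and 0.06. The lowest value was that of *Sdf2l1*, a partner of BiP, at -0.29.

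Among disulfide genes, *P4hb* (ENSMUSG00000025130, chr11:120451122-120464538) had medians of 399 CPM (range 236 to 502), 384 (304 to 433), 460 (374 to 591) and 413 (84.2 to 657) in the same order of groups. The ranges overlapped, and dams 3 and 2 were the ends of the last group. Its difference under fluoxetine was -0.14 (log2, SE 0.163, adjusted p = 0.817). It was -0.07 without FA diet + fluoxetine dam 3, -0.09 without dam 5 and -0.20 without dam 2 of that group. The isomerases *Pdia3*, *Pdia4* and *Pdia6* and the oxidases *Ero1a* and *Ero1b* lay between -0.23 and -0.01.

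Of the degradation genes, *Os9* (ENSMUSG00000040462, chr10:126930436-126957055) had the smallest p. On the breeder diet it ranged from 50.3 to 75.9 CPM with saline (median 63.9) and 43.5 to 84.3 with fluoxetine (median 59.2). On the FA diet the ranges were 60.5 to 81.6 CPM (median 66.8) and 28.4 to 91.7 (median 59.1). The spread was wider in both fluoxetine groups and covered the saline groups. Fluoxetine minus saline gave -0.17 (log2, SE 0.112, adjusted p = 0.631). *Sel1l* had a value of 0.13 and *Edem1*, which hands glycoproteins to degradation, -0.14. *Herpud1*, *Syvn1*, *Derl1* and *Derl2* lay between -0.10 and 0.07.

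The smallest p of the module for fluoxetine belonged to a sensor. *Eif2ak3* (ENSMUSG00000031668, chr6:70821461-70882235), which encodes PERK, had a median of 9.01 CPM in breeder diet + saline (range 4.81 to 12.8) and 6.63 in breeder diet + fluoxetine (3.43 to 11.2). On the FA diet the medians were 7.37 CPM with saline (5.68 to 12.5) and 6.07 with fluoxetine (3.79 to 12.6). Medians were lower with fluoxetine on either diet, and the ranges overlapped. The difference was -0.32 (log2), with a 95% interval from -0.69 to 0.04 (unadjusted p = 0.0787, adjusted p = 0.554 by edgeR).

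The other sensors were closer to 0 relative to their error. *Atf6* (ENSMUSG00000026663, chr1:170532026-170696208) had medians of 12.9 CPM (range 4.75 to 16.4), 9.77 (6.65 to 16.6), 11.8 (8.54 to 15.9) and 9.68 (5.80 to 21.7) in that order of groups, and a difference of -0.17 (log2, SE 0.157, adjusted p = 0.751), and -0.27 without FA diet + fluoxetine dam 2. *Ern1* (ENSMUSG00000020715, chr11:106283818-106378686) had medians of 4.53 CPM (range 1.37 to 5.34), 3.40 (1.55 to 4.59), 3.42 (2.67 to 4.78) and 3.13. The last group ranged from 0.316 CPM in FA diet + fluoxetine dam 6 to 6.33 CPM in dam 3, and covered all others. Its difference was -0.20 (log2, SE 0.219, adjusted p = 0.794), -0.32 without dam 3 and -0.12 without dam 6.

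Of the transcription factors, *Xbp1* (ENSMUSG00000020484, chr11:5470606-5483027) ranged from 269 to 471 CPM in breeder diet + saline (median 412) and from 220 to 491 in breeder diet + fluoxetine (median 395). On the FA diet it ranged from 220 to 455 CPM with saline (median 355) and from 131 to 508 with fluoxetine (median 369). Fluoxetine minus saline gave 0.01 (log2), with a 95% interval from -0.29 to 0.32 (adjusted p = 0.99). *Atf4* (ENSMUSG00000042406, chr15:80139372-80141745) had medians of 133 CPM (range 67.0 to 173), 149 (128 to 181), 134 (104 to 171) and 133 (79.7 to 196) in the order of groups above, all overlapping, and a difference of 0.08 (log2, SE 0.114, adjusted p = 0.856). This was 0.03 without breeder diet + saline dam 10, 0.03 without FA diet + fluoxetine dam 1 and 0.05 without breeder diet + fluoxetine dam 2.

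*Ddit3* (ENSMUSG00000025408, chr10:127124268-127132163) had the largest positive value, a log2 fold change of 0.35 (SE 0.219, unadjusted p = 0.118, adjusted p = 0.597 by edgeR). On the breeder diet its medians were 2.75 CPM with saline and 3.34 with fluoxetine, and on the FA diet 2.61 and 3.27. A level of 9.53 CPM was found in FA diet + fluoxetine dam 3, and the other 30 dams lay between 0.633 and 5.10. Without that dam the log2 fold change was 0.18. Exons of *Ddit3* overlap those of *Mbd6* and *Mars1* on the other strand, as do those of *Hspa5* with *Rabepk*, *Xbp1* with *Ccdc117* and *Pdia6* with *Atp6v1c2*. The strand option of the counting is not given in the sources used here, so reads of such pairs cannot be told apart.

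Of the ATF4 and CHOP targets, *Asns* (ENSMUSG00000029752, chr6:7671667-7728461), which encodes asparagine synthetase, had medians of 52.6 CPM (range 35.6 to 63.6), 52.4 (44.3 to 67.8), 55.6 (45.6 to 76.7) and 52.5 (10.7 to 63.3) in the same order of groups. The lowest dam, at 10.7 CPM, was FA diet + fluoxetine dam 3, and the others lay between 35.6 and 76.7. Its fluoxetine difference was -0.13 (log2, SE 0.146, adjusted p = 0.804), and -0.06 without that dam. *Trib3*, a pseudokinase that binds ATF4, had 0.09, *Chac1* -0.08 and *Ppp1r15a* 0.01.

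**Figure D4:**
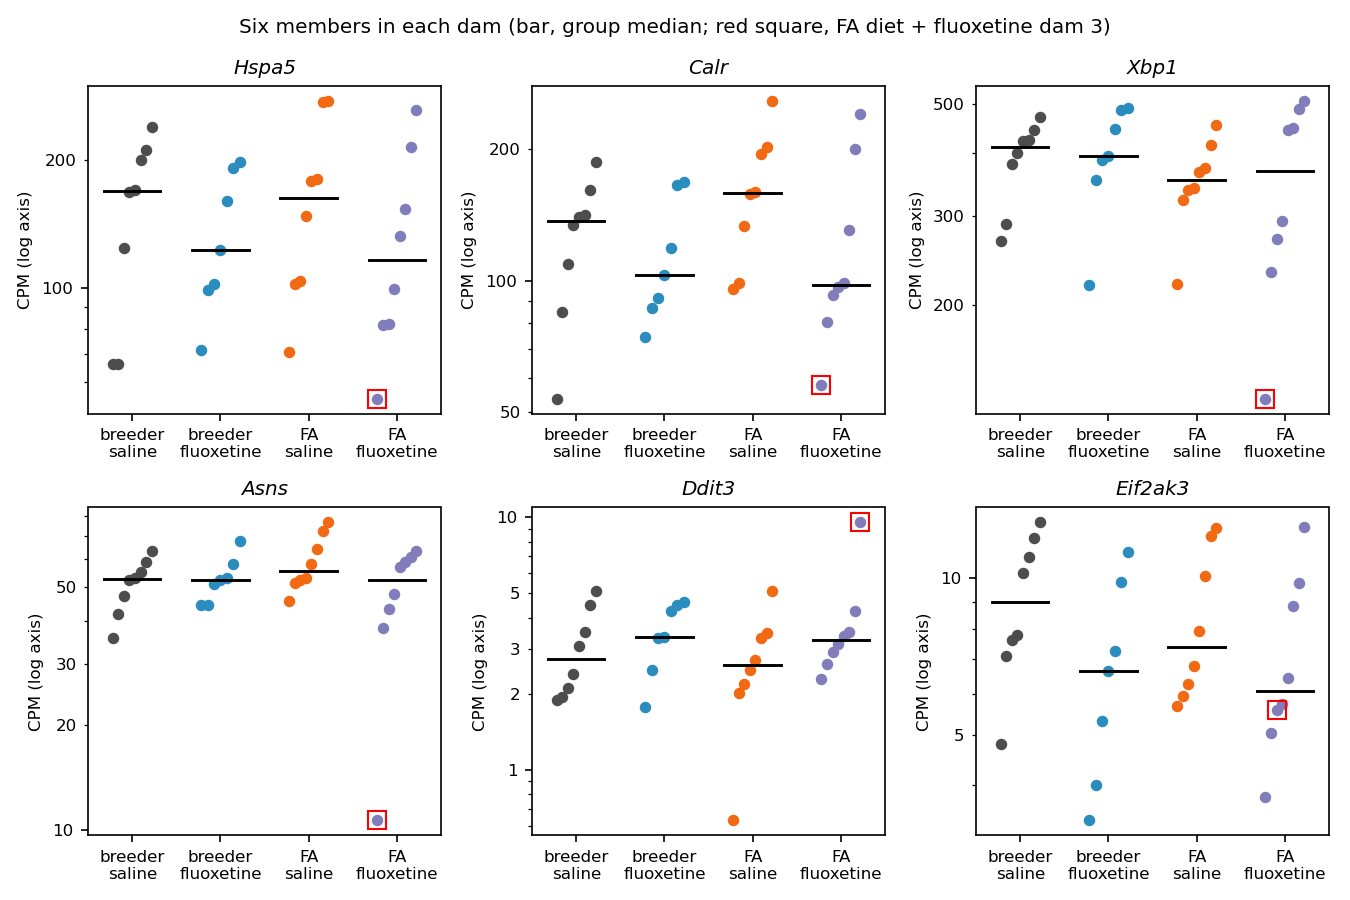
CPM on a log axis in each dam for 6 members. Points are dams, bars are group medians and the red square marks FA diet + fluoxetine dam 3. The groups overlap for each gene, and the marked dam is lowest for *Hspa5*, *Xbp1* and *Asns* and highest for *Ddit3*.

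The FA diet was compared with the breeder diet over both drugs, 16 against 15 dams. With edgeR's quasi-likelihood test, 0 of 40 members passed an FDR of 10%, where 0.0% of all genes did, and 0 had a raw p of at most 0.05, against 5.08%. The likelihood ratio test and DESeq2 again gave 0 by either threshold. In both, 0 of all genes passed the FDR, and 703 and 796 of 14362 had such a p. Log2 fold changes were above 0 for 29 members, including 6 of 6 genes of ER entry, 9 of 11 chaperones, 5 of 6 disulfide genes, 4 of 7 of degradation, 2 of 6 sensors and factors and 3 of 4 ATF4 and CHOP targets, with a median of 0.11. Of all genes, 53.9% were above 0, with a median of 0.02. Without FA diet + fluoxetine dam 3, 3 members had a raw p of at most 0.05, beside 996 of 14247 genes in that fit, and 31 members were above 0, beside 48.8% of genes.

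The smallest p for the FA diet was that of *Pdia6* (ENSMUSG00000020571, chr12:17316533-17335913), a disulfide isomerase that also acts on IRE1. It had medians of 65.0 CPM in breeder diet + saline and 51.2 in breeder diet + fluoxetine, against 73.2 with saline and 58.7 with fluoxetine on the FA diet. The groups on the FA diet had the wider ranges, 37.1 to 102 and 27.6 to 127 CPM, and overlapped both others. FA diet minus breeder diet was 0.28 (log2, SE 0.166, unadjusted p = 0.102, adjusted p = 0.933 by edgeR). Without FA diet + fluoxetine dam 2, the highest, it was 0.17. *Ppp1r15a* had 0.28 (unadjusted p = 0.105 by edgeR) and *Ssr2* 0.28 (unadjusted p = 0.131 by edgeR), and without FA diet + fluoxetine dam 3 the value of *Ppp1r15a* was 0.15.

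The interaction is the fluoxetine difference on the FA diet minus that on the breeder diet. In the edgeR fit, 0 of 40 members passed an FDR of 10%, where 0.0% of all genes did, and 0 had a raw p of at most 0.05, against 3.84%. The likelihood ratio test and DESeq2 gave 0 as well. In both, 0 of all genes passed the FDR, and 558 and 639 of 14362 had such a p. *Ppp1r15a* (ENSMUSG00000040435, chr7:45172340-45175692) had the smallest p. On the breeder diet its medians were 4.46 CPM with saline (range 3.16 to 5.69) and 3.27 with fluoxetine (2.91 to 5.63), and on the FA diet 4.23 (2.59 to 6.62) and 4.14 (2.97 to 10.7). The interaction was 0.62 on the log2 scale (SE 0.335, unadjusted p = 0.0743, adjusted p = 0.977 by edgeR). Without FA diet + fluoxetine dam 3, where it reached 10.7 CPM, it was 0.36. *Asns* had -0.38 and *Sec61b* -0.32, and without the same dam, the lowest for both, they had -0.24 and -0.20. Of the members, 18 had a value above 0, where 54.0% of all genes did, but 8 without FA diet + fluoxetine dam 2 (53.1% of genes) and 25 without dam 3 of that group (48.5% of genes), so the direction over the list rested on single dams.

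Other genes of the pathway were tested for fluoxetine in lists, and 0 passed an FDR of 10% by edgeR, while 9.92% of all genes had a raw p of at most 0.05. Fold changes were above 0 for 53.5% of all genes. Of 17 other genes of the translocon, signal recognition and signal peptidase, 5 were above 0 and 2 had a raw p of at most 0.05. The smallest p was that of *Sec62*, a partner of the channel, at 0.27 (log2, adjusted p = 0.421). Of 15 genes of oligosaccharyltransferase and glycan trimming, 4 were above 0 and 2 had such a p, with *Magt1* at 0.32. Of 13 other folding enzymes, 5 were above 0 and 1 had such a p, *Ppib*, the proline isomerase cyclophilin B, at -0.38 (log2, unadjusted p = 0.00872, adjusted p = 0.393). Of 14 other degradation genes, 1 was above 0 and 2 had such a p.

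Of 13 other stress transducers, 12 were tested, 2 were above 0 and 2 had a raw p of at most 0.05. *Eif2ak2*, the eIF2α kinase that senses double-stranded RNA, had a log2 fold change of 0.38 (unadjusted p = 0.00384, adjusted p = 0.347 by edgeR), beside -0.32 for the ER kinase *Eif2ak3*. Of 20 other ATF4 program genes, 5 were above 0 and 1 had such a p, *Ddit4*, an inhibitor of mTORC1, at -0.63 (adjusted p = 0.461). For the FA diet, values were above 0 for 12 of 17, 13 of 15, 9 of 13, 10 of 14, 5 of 12 and 13 of 20 genes of these lists in the same order, and 0 passed an FDR of 10% by edgeR. Beside these, 53.9% of all genes were above 0 for that diet.

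Markers of other cells in the gland were set beside these values. Under fluoxetine, 6 of 8 myoepithelial markers were below 0, 4 of them with a raw p of at most 0.05, where 2.98% of all genes were below 0 with such a p. Of 8 endothelial markers, 7 were above 0, 1 of them with such a p, against 6.94% of all genes. Of 6 leukocyte markers tested, 5 were above 0, while 53.5% of all genes were above 0 for fluoxetine. For the FA diet, 6 of 8 myoepithelial markers were above 0, with a median of 0.22, 4 of them with a raw p of at most 0.05. Of milk proteins, 8 of 8 were above 0, with 0 such p. Over all 14362 genes, 53.9% were above 0 for the FA diet, and 424 were above 0 with such a p. All 8 myoepithelial and all 8 endothelial markers were detected in every dam. The summed myoepithelial level had medians of 459 CPM with saline (range 396 to 493) and 336 with fluoxetine (249 to 519) on the breeder diet, and of 512 (409 to 686) and 424 (268 to 589) on the FA diet. The summed endothelial level had medians of 46.7 CPM (42.1 to 80.0), 65.2 (41.8 to 73.9), 49.6 (38.1 to 94.3) and 67.8 (34.7 to 85.4) in the same order, and the ranges of the groups overlapped for both. Plasma cells also carry many ER chaperones, and the sum of 8 plasma cell markers ranged from 32.3 to 2265 CPM over the dams, with medians of 1332, 1026, 1321 and 735 CPM. The part of these cells in the level of the members was not tested.

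Members were then compared among dams of the same group. Log2 CPM were centred on the group means, and the 31 dams were correlated for each member with *Hspa5* and with *Asns*, as marks of the chaperone and ATF4 branches, with a permutation test within groups. Over the 77 relations, the smallest p that 100000 resamples can give is 1e-05, and adjusted p are given.

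With *Hspa5*, 33 of 39 members were past an FDR of 10% by Spearman's rho, 32 of them positive and 1 negative. The median rho was 0.73 over the members and -0.01 over all genes tested. For scale, 15.1% of all genes had a rho at or above 0.35, the smallest that passed among members, and 28.0% had one of that size in either direction. All 10 other chaperones passed, with rho between 0.70 and 0.96, as did 6 of 6 genes of ER entry, 6 of 6 of disulfide formation and 6 of 7 of degradation. Genes of a library share its depth and composition. The summed milk proteins had r = 0.22 and rho = -0.01 with *Hspa5*, and the plasma cell markers r = 0.29 and rho = 0.15 (permutation, adjusted p = 0.957 for each rho, over 16 relations chosen after the data were seen). Of the marker sums, the adipocyte markers had the largest rho in size with *Hspa5*, at -0.30 (r = -0.32, permutation, adjusted p = 0.634 for rho). *Sec61b* was the closest to the threshold (rho = 0.35, r = 0.43, permutation, adjusted p = 0.0945), and without the 2 dams of lowest milk protein share it had a rho of 0.27 and was not past it.

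*Calr* was closest to *Hspa5*, with r = 0.95 and rho = 0.96 (each permutation p = 1e-05, adjusted p for rho 4.53e-05), and r = 0.94 without the 2 dams farthest from the median of *Hspa5*. *Calr* was lowest in breeder diet + saline dam 10, at 53.8 CPM, where *Hspa5* had 66.3, and highest in FA diet + saline dam 4, at 258 CPM, where *Hspa5* had 276. *Sec61a1*, the pore of the channel, followed with rho = 0.94, *Pdia3* with 0.92, *Ssr2* with 0.92, *Hsp90b1* with 0.92 and *Manf*, a secreted ER protein, with 0.91. *Calr* and *Hsp90b1* hold an ERSE and *Manf* an ERSE-II, while *Sec61a1*, *Pdia3* and *Ssr2* held neither element in the window. Of the members other than *Hspa5*, the 11 with an ERSE or ERSE-II had a median rho of 0.83, and the 28 with neither 0.63, given as a description. No sensor, factor or target of ATF4 and CHOP held either element, and their median rho was 0.33 and -0.06, so element and role cannot be told apart. Among degradation genes, *Syvn1* (0.73) and *Herpud1* (-0.07) held one, and those with neither lay between 0.58 and 0.84.

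The sensors were split. *Eif2ak3* had a rho of 0.65 with *Hspa5* and *Atf6* of 0.62, and both passed, as did *Atf4* with 0.52. *Xbp1* had rho = 0.13 and r = 0.26 (permutation, adjusted p = 0.546 for rho), and *Ern1* rho = -0.18 (permutation, adjusted p = 0.397). *Hspa5* differed 5.04-fold between the highest and the lowest dam and *Xbp1* 3.89-fold. In FA diet + saline dam 4, the highest for *Hspa5*, *Xbp1* was at 341 CPM, near its group median, and in breeder diet + saline dam 3, where *Hspa5* was at 66.1 CPM, *Xbp1* was at 471 CPM, the highest of its group. *Herpud1*, with ERSE-II and the composite site in its window, had a rho of -0.07 and did not pass.

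*Ddit3* moved against *Hspa5*, with r = -0.72 and rho = -0.71 (permutation, adjusted p = 4.53e-05 for rho). Without the 2 dams farthest from the median of *Hspa5*, which were FA diet + fluoxetine dam 3 and FA diet + saline dam 10, r was -0.66. FA diet + saline dam 2 had the lowest *Ddit3*, 0.633 CPM, with 274 CPM of *Hspa5*, and FA diet + fluoxetine dam 3 had the highest, 9.53 CPM, with the lowest *Hspa5* of 54.8 CPM. The 2 dams next lowest for *Hspa5*, breeder diet + saline dams 3 and 10, had 5.10 and 4.49 CPM of *Ddit3*, above all other dams of that group. *Trib3* and *Ppp1r15a*, known as CHOP targets, had a rho of -0.29 and -0.17 with *Hspa5*, and neither passed. Without the 2 dams of lowest milk protein share, *Trib3* had a rho of -0.41 and was past the FDR (permutation, adjusted p = 0.0619).

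With *Asns*, 27 of 39 members were past an FDR of 10%, 26 of them positive, and the median rho was 0.41, against 0.01 over all genes. At or above 0.33, the smallest that passed, were 18.1% of all genes, and 33.4% in either direction. *Ero1a*, an oxidase known as a CHOP target, was closest, with rho = 0.71 and r = 0.88 (permutation, adjusted p = 0.00037 for rho), and r = 0.68 without the 2 farthest dams. *Atf6* followed with a rho of 0.68 and *Dnajc3*, the inhibitor of PERK known as p58IPK, with 0.65. Of the genes that did not move with *Hspa5*, *Xbp1* had a rho of 0.56 with *Asns* and *Chac1* of 0.55, and both passed. The others, *Herpud1* (rho = 0.28), *Trib3* (0.25), *Ern1* (-0.02) and *Ppp1r15a* (-0.21), did not pass with *Asns* by rho. *Trib3* and *Ppp1r15a* passed by r (0.60 and -0.46), which was 0.23 and -0.11 without the 2 farthest dams. *Atf4* itself had a rho of 0.42 with *Asns* and *Hspa5* of 0.43. *Ddit3* was again negative, with a rho of -0.33 (permutation, adjusted p = 0.0945).

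*Asns* leaned more on single dams than *Hspa5* did. FA diet + fluoxetine dam 3 was its lowest by far, and the milk protein sum had r = 0.83 and rho = 0.42 with *Asns* over all 31 dams (permutation, adjusted p = 0.407 for rho). Without the 2 farthest dams r was 0.40. The endothelial marker sum had rho = -0.58 with *Asns* (permutation, adjusted p = 0.0186), and its part in the relations of *Asns* was not tested. Without the 2 dams of lowest milk protein share, 33 members were past the FDR with *Hspa5* and 26 with *Asns*. *Xbp1* then had a rho of 0.03 with *Hspa5* and of 0.42 with *Asns*, and *Ddit3* of -0.70 with *Hspa5*. With *Asns*, 4 members were then no longer past the FDR, *Ddit3* (rho = -0.17), *Atf4* (0.35), *Spcs1* (0.25) and *Dnajb9* (0.27), and 3 others were past it, *Hsp90b1* (0.37), *Pdia4* (0.40) and *Herpud1* (0.43).

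**Figure D5:**
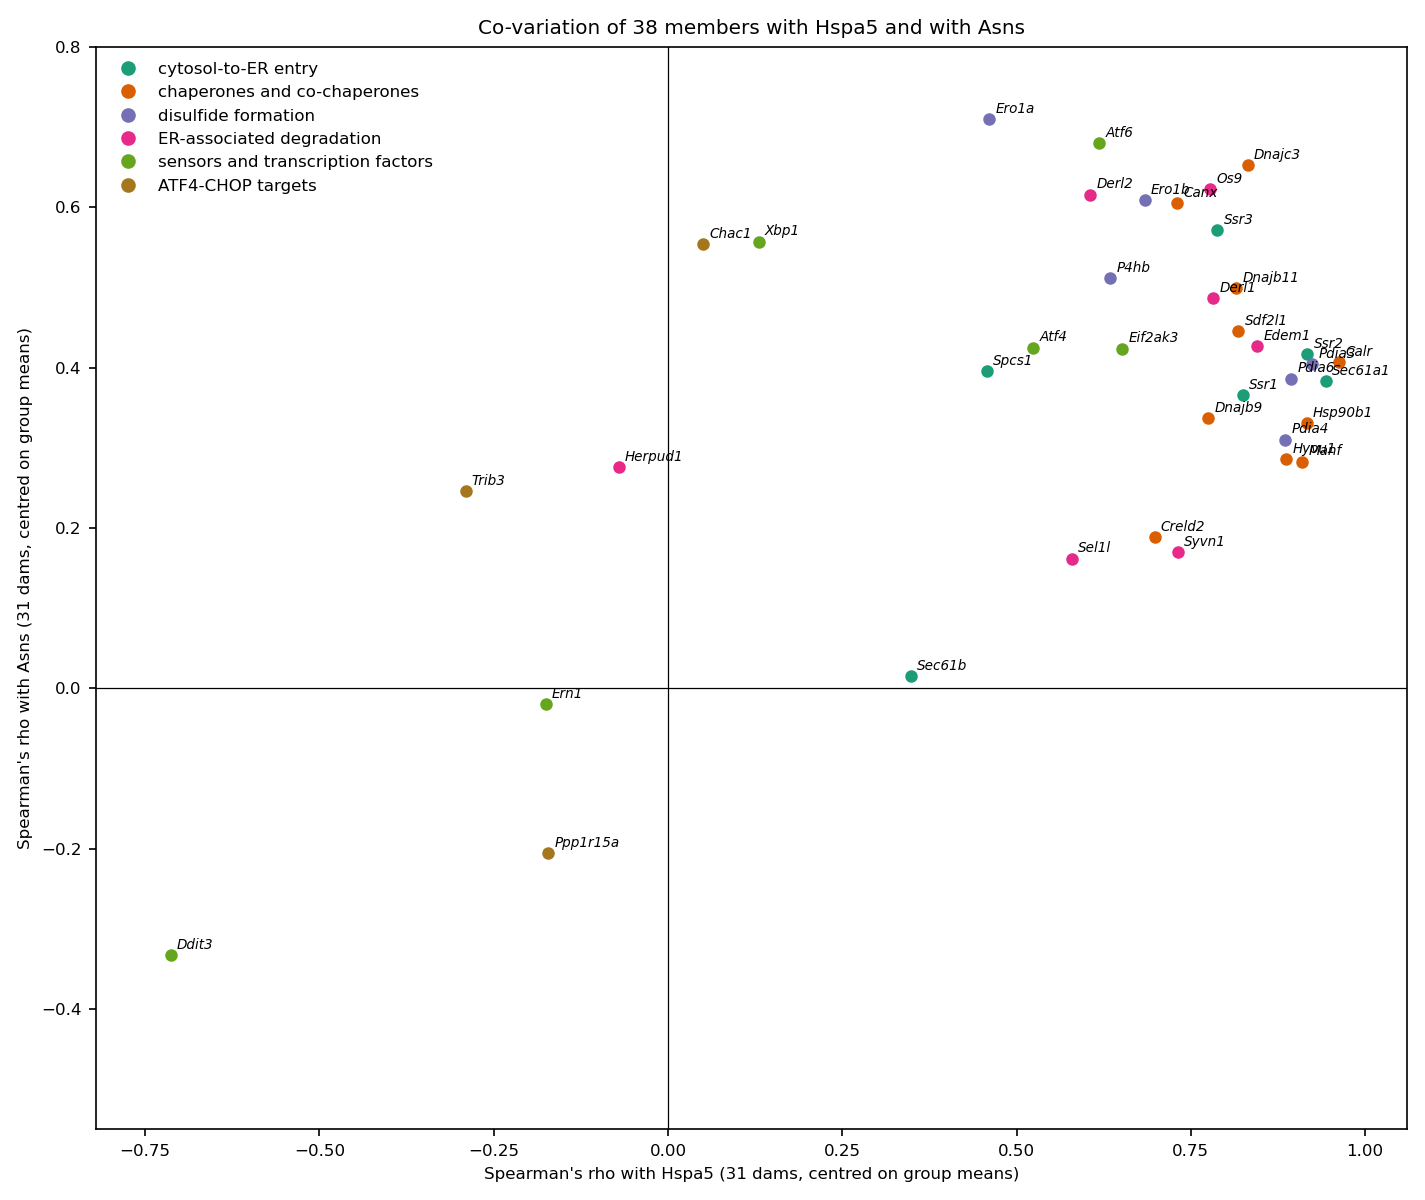
Spearman's rho with *Hspa5* (horizontal axis) and with *Asns* (vertical axis) for the 38 other members, over 31 dams after centring on group means. Colours mark the role. Chaperones and genes of ER entry lie to the right, *Xbp1* and *Chac1* above the centre, and *Ddit3* farthest to the lower left.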

How the data were processed

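The authors sequenced polyadenylated RNA of 31 mammary glands, 1 library per dam. Reads were trimmed (Trim Galore 0.4.4), checked (FastQC 0.11.7), mapped to GRCm39 with HISAT2 and counted per gene with HTSeq in its intersection-nonempty mode. The deposited values are raw counts per Ensembl gene, between 15412542 and 36000439 per dam. The annotation release and strand option are not given in the sources used here. Symbols, exon lengths and positions were taken from GENCODE vM39, where 667 of the 55379 genes were not found. *Ddit3* names 2 genes there, and the one with counts was used.

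In R 4.3.3 with edgeR 4.0.16, the filter filterByExpr by group kept 14362 genes of 55379, with TMM normalization. The 4 groups were fitted with robust dispersion, and fluoxetine, FA (each averaged over the other factor) and their interaction were tested with the quasi-likelihood test, adjusted by Benjamini-Hochberg over all genes tested, at the study's FDR of 10%. Every pair of libraries in a group differed beyond sampling noise (chi-square at least 15.8 for each degree of freedom). On simulated counts of 14059 genes for the fluoxetine contrast, 73.5% of 200 genes with a log2 change of 1 were recovered.

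Correlations of group-centred log2 CPM (prior count 2) were tested two-sided with 100000 permutations within groups and adjusted over 77 relations. Motifs were searched in 250 bases before the start of the canonical transcript.

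The members and lists were chosen with earlier results of these data known. Values are given for the 3 members of smallest p per contrast, the 5 of highest level per kb, *Hspa5*, *Asns* and all sensors and factors, and for the gene of smallest p for fluoxetine in each other list, except 1 that is not reported here. Further members are named to give the range of a role. Relations with marker sums, and fits without the 2 dams of lowest milk protein share, were chosen after seeing the data. Alternatives were the study's likelihood ratio test, DESeq2 1.42.0, no filter, RLE normalization, the 20 most abundant genes left out, an additive model, a replicate block, no group centring and each dam left out. The fluoxetine groups hold 7 dams on the breeder diet and 8 on the FA diet by the labels, which were followed, and the reverse in the study's methods.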

Additional observations from a re-analysis of the deposited data

Results flagged for a closer look

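In each group, the highest and lowest dam of each member was compared with the other dams by Dixon's ratio on log2 CPM. Of 160 member and group combinations, 26 had a dam past the critical value. Chance alone flags about 1 in 20 groups if values are normally spread, and members that move together are flagged together. The share flagged over all genes tested is not given here, so the 26 cannot be read as a trait of the members. FA diet + fluoxetine dam 3 was lowest for 20.6% of all genes tested and highest for 21.9%. Values are CPM, with the range of the other dams of the group in parentheses.

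Breeder diet + saline dam 10 was far below its group for 8 members. Of chaperones, it had 31.3 CPM of *Canx* (46.6 to 60.8), 16.2 of *Dnajb11* (22.7 to 30.1), 35.6 of *Dnajc3* (53.7 to 67.3) and 2.11 of *Sdf2l1* (6.77 to 11.2). It also had 54.6 CPM of *Ssr3* (89.2 to 130), 236 of *P4hb* (372 to 502), 34.8 of *Pdia6* (53.2 to 74.6) and 67.0 of *Atf4* (118 to 173).

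FA diet + fluoxetine dam 3, where milk proteins took 17.7% of the counts, was far below its group for 6 members. It had 19.1 CPM of *Sec61b* (50.6 to 95.9), 26.2 of *Ssr2* (77.4 to 168), 2.41 of *Ero1a* (11.1 to 16.9), 11.03 of *Derl1* (26.3 to 49.95), 9.46 of *Derl2* (19.8 to 27.3) and 10.7 of *Asns* (38.2 to 63.3). The same dam had 9.53 CPM of *Ddit3*, above its group (2.30 to 4.25).

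In FA diet + saline, dam 4 was far above its group for *Herpud1*, at 24.5 CPM (7.93 to 11.97), and *Sel1l*, at 26.5 (17.6 to 21.2). Dam 3 had 220.3 CPM of *Xbp1* (324 to 455) and dam 2 had 0.633 of *Ddit3* (2.02 to 5.10), both lowest. In breeder diet + saline, dam 4 was lowest for *Ern1*, at 1.37 CPM (3.67 to 5.34), and *Atf6*, at 4.75 (9.91 to 16.4), and FA diet + fluoxetine dam 6 was lowest for *Ern1* at 0.316 CPM (2.32 to 6.33).

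In breeder diet + fluoxetine, dam 5 had 4.997 CPM of *Dnajb9*, below its group (11.96 to 19.5), and 5.63 of *Ppp1r15a*, above it (2.91 to 3.50). Dam 9 had 219.5 CPM of *Xbp1* (354 to 491) and dam 13 had 16.9 of *Trib3* (44.0 to 82.9), both lowest.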

How the results depend on the processing

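Counts of members past an FDR of 10% were 0 for fluoxetine, FA and the interaction under every alternative run. Of all genes, at most 70 passed for fluoxetine (DESeq2), and 0 for FA and the interaction. With a replicate block on the dam's number, 2 members had an unadjusted p of 0.05 or below for fluoxetine and 3 for FA, beside 967 and 887 of 14362 genes, and the log2 fold changes for fluoxetine of *Ern1* and *Sec61b* were 0.034 and -0.063, with the opposite sign to the fit without the block. The 28 same-numbered pairs correlated between -0.22 and 0.43, with a mean of 0.071, against -0.005 for other dams of different groups. Of 31 dams, 4 correlated best with their own number. Whether the number marks a shared batch was not tested. Without the 2 dams of lowest milk protein share, 4 members had such a p for FA, beside 1045 of 14401 genes. The cause was not tested.

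With each dam left out in turn, members at an unadjusted p of 0.05 or below numbered 0 to 5 for fluoxetine. The 5 were without FA diet + fluoxetine dam 2, beside 1939 of 14334 genes. They numbered 0 to 3 for FA (3 without FA diet + fluoxetine dam 3, beside 996 of 14247 genes). For the interaction they numbered 0 to 1 (1 without breeder diet + fluoxetine dam 5, beside 558 of 14537 genes). Values above 0 numbered 7 to 14, 25 to 32 and 8 to 25. Of all genes, 48.4 to 54.7%, 48.8 to 54.5% and 48.5 to 55.1% were above 0 in the same fits. Members past the FDR with *Hspa5* numbered 32 to 34 and with *Asns* 20 to 31, 20 without breeder diet + saline dam 10. For these correlations, shares of all genes are given only over all 31 dams. The fluoxetine value of *Sec61b* lay between -0.035 and 0.072 and changed sign in 9 of 31 fits, and that of *Xbp1* between -0.036 and 0.065 and in 10 of 31. The values of the other members recomputed in these fits, which were the 3 of smallest p per contrast, the 5 of highest level, *Hspa5*, *Asns* and the sensors and factors, kept their direction. Other members were not followed singly.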
